A study of Mus musculus with 12 samples.

Results

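The response of RAW264.7 cells to lipopolysaccharide (LPS) given alone was measured by RNA sequencing, as the difference between 3 LPS libraries and 3 untreated libraries. RAW264.7 is a mouse macrophage-like line. The genes compared were those with at least 1 FPKM (fragments scaled to the length of the gene model and the depth of the library) in at least 3 of the 12 libraries of the study, which left 10276 genes of 31719. Il6 was left out, because its deposited values in the libraries without LPS belonged to another entry, so the table gives no untreated level for this gene. A gene that is near 0 in untreated cells entered the comparison only through libraries in which it is present, so being higher with LPS is built into the choice for such genes.

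All cells were labelled WT. The LPS group had received LPS at 50 ng/ml and the untreated group carried the treatment label UT. The other groups, used below only where stated, were cells given anti-CD36 antibody at a dilution of 1 in 100, without LPS or with LPS at 50 ng/ml. The labels do not give the duration of treatment, nor whether replicates were grown as separate cultures, so the p-values below cover the spread between these libraries alone, which may be technical. The line is grown as a population, and in such bulk RNA fewer cells expressing a gene and less RNA per cell cannot be told apart.

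LPS, a component of the outer membrane of Gram-negative bacteria, is handed by the co-receptor CD14 to the receptor TLR4 and its partner MD-2. TLR4 signals through the adaptor MyD88, which leads to NF-kB and MAP kinase activation, and through the adaptor TRIF, which leads to IRF3 activation and interferon beta. In macrophages these routes induce cytokines, chemokines and antimicrobial enzymes, and secreted interferon acts back on the cells to induce a further set of genes through IRF9 and STAT proteins.

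The recovered depth of the 6 libraries ran from 30070450 to 54137812 fragments, and 14212 to 14878 genes were above 0. In a principal component analysis of all 12 libraries, the first component held 74.0% of the variance and separated every library with LPS from every library without it. The next held 17.1% and set untreated replicate 3 and LPS replicates 2 and 3 apart from the rest (scores of −28.9, −18.5 and −30.8). Of 12 macrophage markers, 10 passed the filter. Their summed level was 4452 to 5823 FPKM untreated and 6082 to 7856 with LPS, most of it from Lyz2 (means of 3140 and 3926 FPKM). Of these markers 6 were called higher, among them Cd14 (529 to 1569 FPKM). The 2 called lower were Cd68 (500 to 375 FPKM) and Csf1r (216 to 164 FPKM). Of the T cell list only Lck passed (2.10 to 6.27 FPKM) and of the B cell list only Ighm (42.6 to 56.7 FPKM). The defining genes Cd3e, Cd3g, Cd8a and Ms4a1 were listed at 0 in all 6 libraries, as were all 6 epithelial markers, and no marker of NK cells, mast cells, neutrophils, fibroblasts or endothelial cells reached 1 FPKM.

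As deposited, more genes were called lower than higher, and the largest changes were rises. At an adjusted p under 0.05 (limma, Benjamini-Hochberg over all 10276 genes), 5113 genes were called (49.8% of those tested), 1710 of them higher with LPS (16.6%) and 3403 lower (33.1%). The median change of all genes was −0.14 on the log2(FPKM + 1) scale, on which the genes were tested. Log2 changes below are on this scale, some with their standard error. A fold given for a single gene is the ratio of the group means of FPKM, without a pseudocount, and was not itself tested. The pseudocount of 1 makes changes of low genes look smaller than they are, so the 2 measures differ. Plk2, for example, was 55.6-fold higher by its means, with a log2 change of 4.69. With median-of-ratios scaling, which moves that median to −0.004, the split became 2352 higher and 2226 lower (51.4% higher in place of 33.4%). Removing the trend on GC content and gene length also shifts the median, to 0.007, and gave 3087 and 2924 (51.4%). The direction of small changes thus depends on the scaling. What GC content and length add beyond that shift was not tested. At least 2-fold changes, meaning called and at least 1 on this scale, were found in 526 genes higher (5.12%) and 431 lower (4.19%), and all of these were called in the same direction with median-of-ratios scaling. Of the 431 lower genes 286 still fell by at least 2-fold with that scaling.

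On the log2(FPKM + 1) scale at least 4-fold changes numbered 165 upward and 18 downward, at least 8-fold 69 and 1, and at least 16-fold 31 and 0. Over all called genes the median changes lay closer, at 0.68 for those higher and −0.53 for those lower. The 526 risers had a median level of 4.28 FPKM in untreated cells and 19.3 with LPS, and 122 of them were below 1 FPKM untreated. The 431 fallers had medians of 14.0 and 4.99 FPKM. A gene below 1 FPKM untreated cannot fall by 2-fold on this scale. The pseudocount limits larger falls in the same way at higher levels, and does not limit rises. Klhl30, with means of 3.38 FPKM untreated and 0.0587 with LPS, was 57.5-fold lower by its means but changed by −2.05 on this scale. The counts of large rises and large falls are therefore not on an equal footing. Of the risers 523 had 3 LPS values all above the 3 untreated values, with Neat1, Mir146 and 1700109H08Rik as the exceptions. All 431 fallers were separated in the same way. Over all tested genes the LPS values lay wholly above in 16.7% and wholly below in 32.9%, and the choice of called 2-fold genes nearly fixes the separation.

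**Figure D1:**
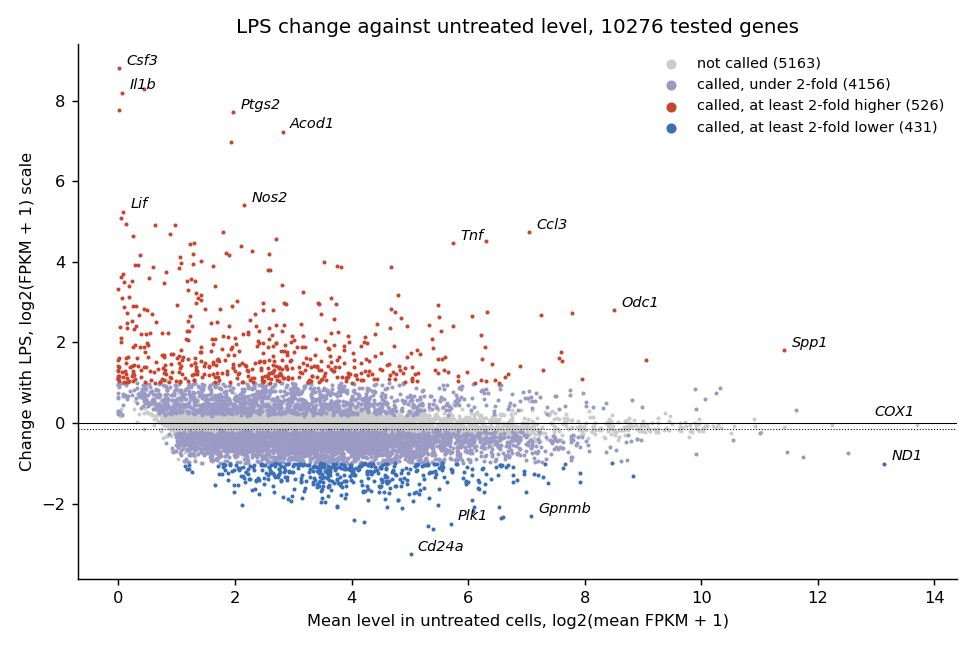
Change with LPS (log2(FPKM + 1) scale, vertical axis) against the mean level in untreated cells (log2(mean FPKM + 1), horizontal axis), with 1 point for each of the 10276 tested genes and colours for called and 2-fold genes. The dotted line is the median of all genes (−0.14). The 526 genes at least 2-fold higher reach changes of 8 and more at low untreated levels, whereas the 431 lower genes end at −3.26 (Cd24a). The pseudocount of 1 limits how far low genes can fall on this scale.

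As a description of the same calls, the share of the summed FPKM held by the 526 risers went from 3.17 ± 0.19% (SD, n = 3 libraries) in untreated cells to 15.1 ± 0.80% with LPS. The 20 risers of highest level with LPS alone went from 1.67 ± 0.10% to 9.06 ± 0.54%. The 431 fallers went from 6.46 ± 0.12% to 2.74 ± 0.06%. Genes called lower by less than 2-fold, 2972 in number, went from 25.6 ± 0.58% to 17.0 ± 0.08%. In these groups the ranges of the 3 untreated and the 3 LPS libraries did not overlap.

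**Figure D2:**
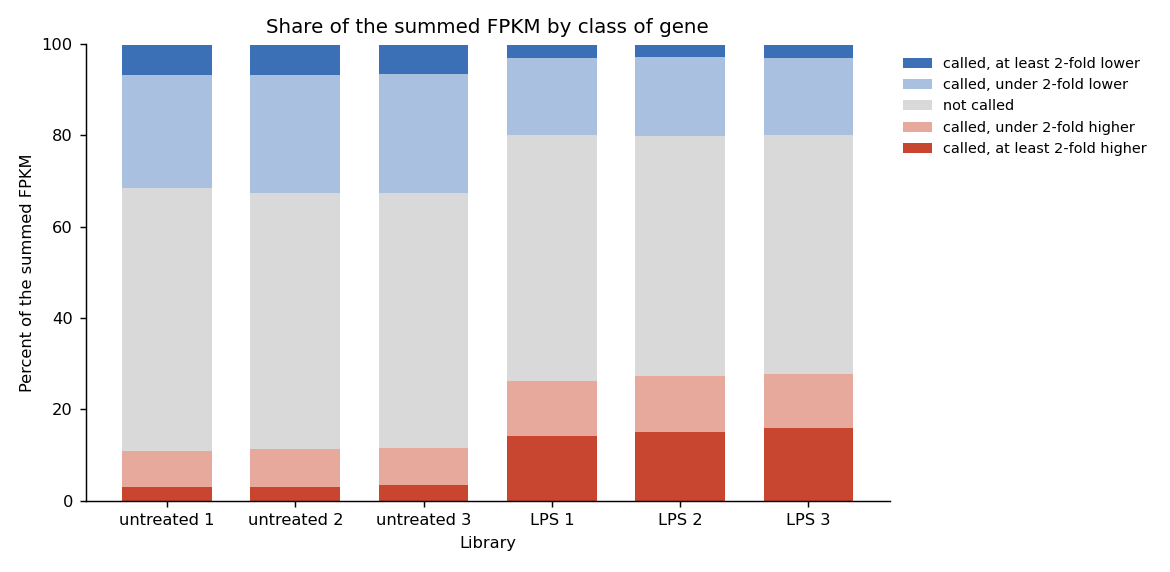
Percent of the summed FPKM of each library held by genes called higher or lower, by at least 2-fold or less, and by genes not called. The bars start at 0, and the small remainder up to 100 belongs to entries that were not tested. The dark red block of 2-fold risers is 3.01 to 3.39% in the untreated libraries and 14.3 to 15.9% in the LPS libraries.

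Receptors for microbial products moved unevenly. Of 29 listed pattern recognition receptors, 25 were tested, 14 rose and 4 fell (median 0.57). For this and every list below, the shares over all tested genes were 16.6% higher and 33.1% lower. Clec4e, which binds mycobacterial glycolipid, had 12.3, 11.6 and 13.1 FPKM in the untreated libraries and 87.5, 109 and 114 with LPS, a rise of 8.37-fold. Cytosolic RNA sensors rose as well, Ifih1 (MDA5) from 4.34 ± 0.902 to 20.2 ± 4.88 FPKM (SD, n = 3) and Ddx58 (RIG-I) from 12.8 ± 3.40 to 41.6 ± 10.1. Dhx58 (LGP2), their regulator, rose by 1.83 ± 0.09 and the scavenger receptor Msr1 by 2.00 ± 0.13.

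The receptor for LPS itself did not follow this pattern. Tlr4 stood at 8.82, 9.43 and 12.8 FPKM untreated and 5.13, 7.81 and 8.28 with LPS, a fall of 1.46-fold (adjusted p = 0.0297) that was called in 12 of 18 alternative settings and not with median-of-ratios scaling. Its 3 LPS values all lay below its 3 untreated values. Ly96, which encodes MD-2, was not called (9.01, 9.97 and 10.6 against 6.998, 8.67 and 10.1 FPKM, adjusted p = 0.371). Cd14 rose 2.96-fold, to 1853, 1526 and 1326 FPKM. Of the other Toll-like receptors, Tlr1 (2.91 to 9.34 FPKM), Tlr2 (43.3 to 56.0), Tlr3 (1.13 to 2.57) and Tlr6 (3.05 to 5.03) rose, Tlr9 and Tlr13 were not called, and Tlr7, a sensor of single-stranded RNA, fell from 36.4 to 24.5. The DNA sensor Cgas fell from 18.6 to 12.3 FPKM. The falls of Tlr7, Cgas and Ly86 were not called with median-of-ratios scaling, so with it none of the 25 receptors was lower and 15 were higher.

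Of 27 adaptors and kinases downstream of the receptors, 7 rose, 5 fell and 15 were not called (median 0.10). Over all tested genes 16.6% rose and 33.1% fell, so a large part not called is not particular to this list. Ikbke, the inducible IkB kinase epsilon, went from 1.26, 1.48 and 1.44 FPKM to 9.65, 11.9 and 13.8, and Irak2 from 4.33, 5.40 and 5.25 to 28.3, 29.8 and 30.1. The TRIF gene Ticam1 rose 2.64-fold and the PI3 kinase adaptor Pik3ap1 2.55-fold. Myd88 was not called (34.8 to 28.9 FPKM, adjusted p = 0.0955), nor were Traf6, Tbk1, Ikbkb, Chuk or Map3k7. Irak1 fell 1.33-fold (adjusted p = 4.20e-04), with all 3 LPS values below the untreated ones.

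NF-kB is a family of dimeric transcription factors that IkB proteins hold in the cytoplasm, and several IkB genes are themselves targets. All members of this family except Rela rose, 10 of 11 tested (median 1.57). Nfkbiz, a nuclear IkB protein, stood at 2.13, 2.54 and 3.16 FPKM untreated and at 58.9, 65.8 and 74.1 with LPS (25.4-fold, log2 change 4.22 ± 0.12, adjusted p = 1.10e-10). Nfkbia, the classical inhibitor, stood at 50.3, 45.4 and 40.5 and 257, 217 and 200.5 FPKM. For both genes every LPS library lay above every untreated one. Among the DNA-binding subunits, Rel rose 3.72-fold, Nfkb2 3.31-fold, Nfkb1 1.91-fold and Relb 1.98-fold. Rela, which encodes the subunit p65, had 15.4, 15.3 and 13.6 FPKM untreated and 16.2, 13.4 and 12.7 with LPS (log2 change −0.07 ± 0.10, adjusted p = 0.604). Its change was 0.09 with median-of-ratios scaling, and it was called higher, at 0.14, with the trend on GC content and gene length removed and a replicate block.

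Some induced genes hold upstream words that resemble the binding site of NF-kB. The stretch upstream of Nfkbia (RefSeq, GRCm38.p6, chr12:55492658-55492835, minus strand) and that upstream of the chemokine gene Cxcl2 (chr5:90903793-90903821, plus strand) are shown as examples from an induced inhibitor and an induced chemokine. Capitals mark GGANTTTCC or its reverse complement.
Nfkbia: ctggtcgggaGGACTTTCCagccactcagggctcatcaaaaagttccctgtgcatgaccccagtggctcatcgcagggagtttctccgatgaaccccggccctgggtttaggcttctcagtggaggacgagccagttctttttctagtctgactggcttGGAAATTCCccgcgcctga
Cxcl2: ctgagctcagGGAATTTCCctggtccccg
In Nfkbia the matches start 178 and 29 bases before the annotated start, and in Cxcl2 the match starts 96 bases before it. No such word stood in the 250 bases upstream of the induced genes Tnf, Il1a, Il1b, Ptgs2 or Csf2. A match of letters is a description of the sequence and does not show that a protein is bound there.

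Inhibitors of the pathway rose together. Of 24 listed feedback genes, 21 were tested, 17 rose and 1 fell (median 1.38). Il1rn, the secreted antagonist of the IL-1 receptor, went from 10.9, 11.7 and 9.06 FPKM to 191, 179.9 and 175. Socs3, which blocks JAK kinases, went from 1.51, 1.46 and 1.28 to 44.3, 34.5 and 30.8, and the repressor Atf3 from 4.63, 5.03 and 5.06 to 84.3, 77.8 and 82.0. These rises, 17.2-fold, 25.8-fold and 16.6-fold, left a wide gap between the groups. The mRNA-degrading proteins Zfp36 (8.49-fold) and Zc3h12a (9.87-fold), the deubiquitinase Tnfaip3 (4.46-fold), Usp18 (3.18-fold) and the checkpoint ligand Cd274 (6.18-fold) rose as well. Cyld, Tollip and Sigirr were not called, and the fall of N4bp1 (−0.29) was not called with median-of-ratios scaling. Phosphatases that switch off MAP kinases split, with 7 of 11 higher and 3 lower. Dusp5, which acts on ERK in the nucleus, rose 14.98-fold and Dusp16 4.66-fold, whereas Dusp14 fell 2.33-fold. Dusp1 rose only from 1.54 ± 0.199 to 2.72 ± 0.279 FPKM.

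**Figure D3:**
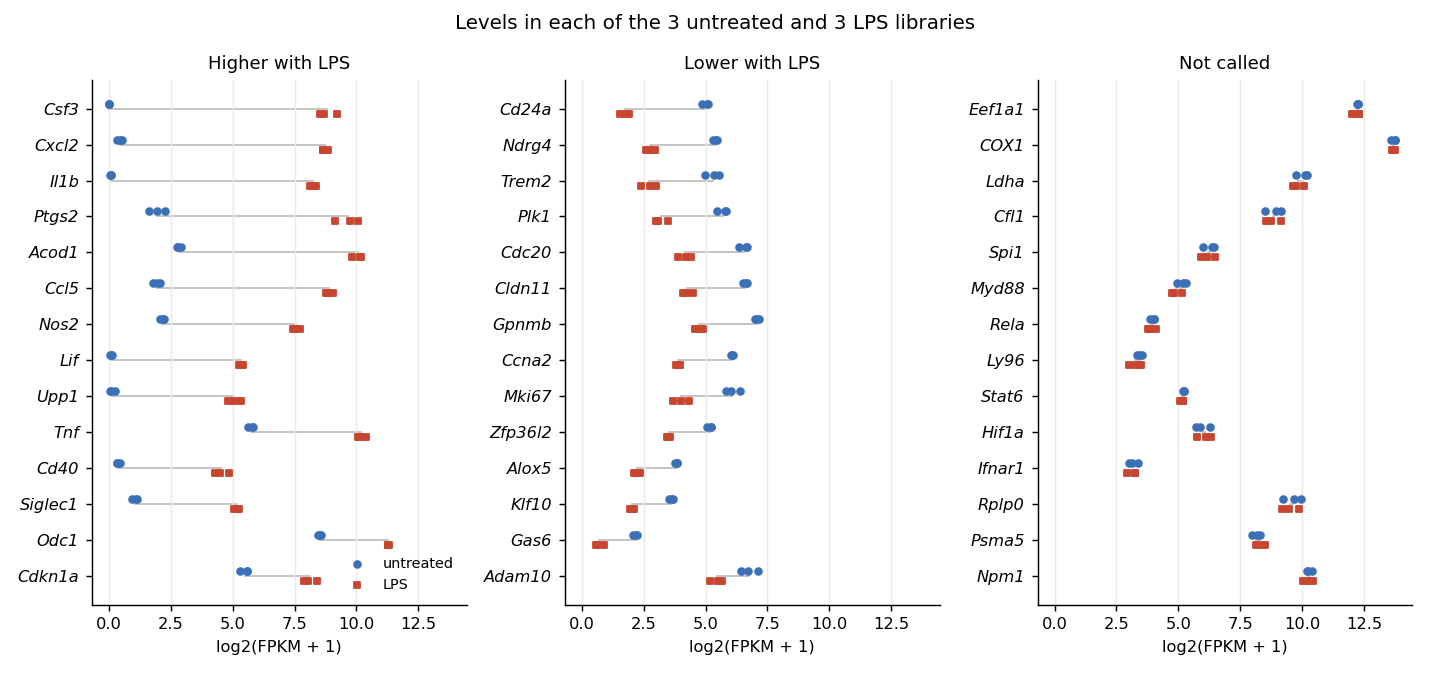
Levels of 42 genes in each of the 3 untreated (blue circles) and 3 LPS libraries (red squares), as log2(FPKM + 1), with a grey line between the group means. In the panels of higher and lower genes the groups of symbols are apart in every row, and in the panel of genes that were not called (for example Myd88, Rela and Stat6) they overlap. Genes were placed in the panels by their call and direction, which nearly fixes this separation.

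Chemokines, small proteins that attract leukocytes, gave some of the largest changes. All 9 tested CC chemokines of 15 listed rose (median 3.62), as did 4 of 5 tested CXC chemokines of 11 listed, with Cxcl14 lower. Cxcl2, a neutrophil attractant, had 0.25, 0.386 and 0.442 FPKM untreated and 467, 402 and 405 with LPS (log2 change 8.29 ± 0.09, adjusted p = 7.07e-14). Ccl5 had 3.16, 2.84 and 2.45 and then 533, 464 and 439.8 FPKM, a 170.1-fold rise. Ccl3 and Ccl4, which attract monocytes and T cells, started from a higher base. Ccl3 went from 144, 133 and 115 to 3818, 3324 and 3329 FPKM. Ccl4 went from 94.2, 78.1 and 62.6 to 2329, 1685 and 1497 FPKM. The interferon-responsive Cxcl10 rose 59.9-fold, to 59.4, 59.0 and 56.5 FPKM, and Cxcl11 reached 12.7 from 0.0522. Ccl22 (37.5-fold), Ccl2 (18.4-fold) and Ccl9 (6.48-fold) rose as well. Cxcl14 stood at 1.61, 1.75 and 0.955 against 0.779, 0.729 and 0.63 FPKM and its fall was not called with median-of-ratios scaling.

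The receptors for chemoattractants were mostly low, with 10 of 20 tested, 7 higher and 1 lower. C5ar1, the receptor for complement C5a, went from 4.85, 4.65 and 4.28 to 45.6, 37.3 and 32.6 FPKM and C3ar1 from 1.33, 1.38 and 1.35 to 12.49, 14.8 and 14.3. Ccrl2, a receptor that presents chemerin without signalling, rose 25.7-fold. Fpr2, a formyl peptide receptor, was listed at 0 in the 3 untreated libraries and stood at 1.58, 1.32 and 1.46 FPKM with LPS. Cx3cr1, the fractalkine receptor, was not called at 39.6 against 37.9 FPKM.

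Il1a, Il1b and Il1f6 of the IL-1 family were at or near 0 in untreated cells. Il1b had 0.0678, 0.0484 and 0.029 FPKM untreated and 278, 311 and 329 with LPS. Its value in untreated replicate 2 equals the mean of the other 2, so its untreated spread is too small. Il1a had 0.0281, 0 and 0 FPKM and then 178, 218 and 270.0, and Il1f6 (IL-36 alpha) 0, 0.0753 and 0.0314 and then 4.06, 3.31 and 2.41. The log2 changes were 8.19 ± 0.08 (± SE) for Il1b and 7.77 ± 0.12 for Il1a, with no overlap between the groups. Il18, which is made constitutively in many macrophages, rose only 2.52-fold, from 19.7, 19.5 and 16.9 to 46.9, 46.3 and 48.2 FPKM. The ST2 receptor Il1rl1 rose 2.60-fold, and Il18rap was not called. In all, 10 of the 11 tested genes of the family and its receptors rose (median 1.27).

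In the IL-12 and IL-10 families 4 of 10 listed genes were tested and all 4 rose. The IL-27 subunits Il27 (0.326, 0.586 and 0.732 to 56.5, 42.0 and 40.2 FPKM) and Ebi3 (5.62, 5.33 and 4.05 to 26.6, 23.2 and 22.8) rose by 4.92 ± 0.13 and 2.08 ± 0.13. Il23a reached 2.85, 2.37 and 1.79 FPKM from at most 0.115. The receptor subunit Il10ra rose 3.24-fold.

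Of 6 tested TNF superfamily ligands 5 rose. Tnf, already present in untreated cells, went from 53.6, 55.5 and 48.4 to 1326, 1134 and 1067 FPKM (22.4-fold). Its neighbours in the major histocompatibility region, Ltb (11.9, 11.1 and 7.32 to 91.6, 66.2 and 57.0 FPKM) and Lta (0.174, 0.0481 and 0.200 to 9.37, 8.79 and 8.58), rose as well. Tnfsf15 rose by 4.63 ± 0.22. Receptors of the superfamily split: the inducible TNF receptor Tnfrsf1b rose 14.8-fold (1.84, 2.67 and 1.98 to 31.7, 31.7 and 32.7 FPKM), while Tnfrsf1a, the main death-domain receptor, was not called (19.4, 20.96 and 19.1 against 24.6, 17.7 and 16.2). Cd40, through which T cells activate macrophages, went from 0.353, 0.264 and 0.268 to 27.7, 21.8 and 18.3 FPKM. Tnfrsf11a, the RANK receptor needed for osteoclasts, fell 1.42-fold.

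Growth factors were affected in both directions. All 14 tested genes of 25 listed changed at least 2-fold, 12 upward and 2 downward. Csf3 (G-CSF) had 0.0131, 0 and 0 FPKM untreated and 588, 411 and 372 with LPS, the largest change of all tested genes (8.80 ± 0.14). Csf2 (GM-CSF) reached 34.9, 33.4 and 34.3 FPKM from 0, 0.0416 and 0.0692, and the IL-6 family cytokine Lif reached 41.4, 36.7 and 39.5 from 0.051, 0.0306 and 0.102. The 3 LPS values of Csf2 and Lif lay within a narrow band. Oncostatin M (Osm) rose 13.3-fold, Pdgfb 6.15-fold and Vegfa 2.57-fold. Close relatives went the other way: Pdgfa fell from 7.31, 7.11 and 5.52 to 2.92, 2.51 and 1.72 FPKM and Vegfb from 20.8, 19.2 and 17.6 to 9.25, 7.06 and 6.99. Csf1 reached 1.35 FPKM from 0.0613, and its receptor Csf1r fell 1.32-fold (207, 224 and 218 to 175, 164 and 153 FPKM).

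Among cytokine receptors 6 of 14 tested rose and 4 fell (median −0.03). The common gamma chain Il2rg rose 2.36-fold and the IL-13 receptor Il13ra1 2.11-fold. Il6ra, the receptor for IL-6, fell 2.77-fold, from 8.28, 8.69 and 9.04 to 2.95, 3.23 and 3.21 FPKM. The shared signalling chain Il6st was not called. With median-of-ratios scaling 2 of the 4 falls were lost (Tgfbr2 and Csf2rb2).

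The interferon system showed a rise of the factors and effectors and not of the receptors. Ifnb1, which encodes interferon beta, was listed at 0 in every untreated library and stood at 1.61, 1.02 and 0.866 FPKM with LPS. Of 18 tested IRF, STAT and JAK genes 9 rose and 2 fell. Irf7, the amplifier of type I interferon production, went from 27.8, 27.1 and 22.4 to 218, 175 and 149 FPKM, and Irf8 from 7.36, 7.74 and 6.24 to 38.4, 31.9 and 29.3. Stat2 rose 3.31-fold. Irf2, an antagonist of Irf1, fell from 5.81, 6.47 and 5.42 to 3.78, 3.63 and 2.92 FPKM, and Irf1 itself was not called (2.34 against 2.13). The receptor chains Ifnar2 (1.55-fold) and Ifngr1 (1.70-fold) fell, and Ifnar1 and Ifngr2 were not called.

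Antiviral effectors rose broadly, 17 of 21 tested OAS, IFIT, Mx and related genes with none lower (median 1.54, 20 higher with median-of-ratios scaling). Ifit3, which binds viral RNA caps together with its relatives, went from 1.02, 1.03 and 1.71 to 20.4, 26.8 and 26.8 FPKM, and Rsad2 (viperin) from 1.01, 1.29 and 1.58 to 17.6, 22.3 and 25.5. Oasl1 went from 27.1, 24.7 and 21.6 to 207, 174 and 160.3, and Mx1 rose by 2.84 ± 0.17. In each of these the lowest LPS value was several times the highest untreated one. Ifitm3, already at 1271 FPKM in untreated cells, rose 1.82-fold. Oas1c was not called, and Oas2, Eif2ak2 (PKR) and Ifitm2 were not called here but were higher with median-of-ratios scaling (log2 changes here 0.30 ± 0.18, 0.53 ± 0.21 and 0.47 ± 0.20). Near-identical copies such as Ifit3 and Ifit3b or the Oas1 genes may share fragments, and how these were assigned is not given in the sources used here. ISG15 is a ubiquitin-like protein, and all 7 genes on the list made for its conjugation rose. This list also holds the exonuclease Isg20, which is not a conjugation gene. Isg15 went from 33.1, 26.6 and 20.4 to 320.5, 232 and 195 FPKM, its activating enzyme Uba7 from 4.32, 4.65 and 4.84 to 22.3, 20.95 and 20.6 and the exonuclease Isg20 from 4.67, 4.005 and 3.11 to 118, 91.3 and 76.2.

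The interferon-stimulated response element is bound by STAT complexes that contain IRF9 and by other IRF proteins. Its core GAAANNGAA, in capitals on either strand, stands once or several times in short stretches upstream of the effectors Ifit3 (chr19:34583364-34583445, plus), Isg15 (chr4:156200866-156200906, minus) and Rsad2 (chr12:26456553-26456581, minus), shown for the number and spacing of the matches.
Ifit3: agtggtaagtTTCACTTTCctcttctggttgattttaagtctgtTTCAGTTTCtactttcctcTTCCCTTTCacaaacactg
Isg15: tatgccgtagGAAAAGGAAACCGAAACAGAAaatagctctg
Rsad2: tggtccaactTTCATTTTCagaaaacaga
Cxcl10: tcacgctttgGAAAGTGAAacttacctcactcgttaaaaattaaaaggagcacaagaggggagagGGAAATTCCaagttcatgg
Ifit3 and Isg15 each hold 3 matches, which overlap in Isg15. The stretch upstream of Cxcl10 (chr5:92349029-92349112, minus) is added because it holds both a GAAANNGAA match, starting 213 bases before the start, and a GGANTTTCC match in reverse, starting 158 bases before it.

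The p200 family, which includes sensors of DNA, is encoded by a cluster on chromosome 1. Of 8 tested genes on the list of this family 6 rose, all at least 2-fold (median 2.81), and Ifi208 and Mndal, which the list leaves out, also rose at least 2-fold. Ifi204 went from 2.36, 2.503 and 3.30 to 54.5, 66.9 and 78.3 FPKM, Ifi211 from 0.900, 0.876 and 1.41 to 22.4, 28.6 and 35.5 and Ifi202b from 12.6, 11.8 and 13.2 to 173, 194 and 241. Aim2, the inflammasome-forming member, was not called (21.1, 22.1 and 28.6 against 19.3, 31.3 and 35.7 FPKM), and its groups overlapped. In the Schlafen and TRIM families 9 of 15 tested rose and 1 fell. Slfn4 rose with a wide spread between libraries (17.6, 21.1 and 34.6 to 203, 407 and 548 FPKM), whereas Slfn2 (45.5, 45.7 and 40.3 to 346, 355 and 324) was even. Slfn9 fell from 6.82, 6.91 and 10.2 to 2.86, 4.19 and 5.78 FPKM. Members of this family also share sequence with near copies.

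Antigen presentation on class I molecules rose by modest amounts in nearly all its parts. Of 17 tested genes of the immunoproteasome and peptide loading 16 rose, 4 of them at least 2-fold, with a median of 0.68. The immunoproteasome subunit Psmb10 went from 26.9, 24.5 and 18.7 to 84.2, 62.9 and 51.4 FPKM, the peptide transporter Tap1 from 6.57, 7.59 and 6.37 to 18.7, 16.0 and 13.2 and the loading factor Tapbp from 55.7, 60.2 and 50.4 to 143, 109.8 and 97.8. B2m, the light chain, rose 1.498-fold, and Erap1, which trims peptides, was not called. By contrast, of 18 subunits of the constitutive proteasome 1 was called, Psma6 (226, 217 and 200.2 to 404, 372 and 352 FPKM), with a median of 0.07 (3 called with median-of-ratios scaling). The catalytic subunits Psmb5, Psmb6 and Psmb7, which the inducible subunits replace, were among those not called.

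Enzymes that make messengers and toxic products moved in both directions. Nos2, the inducible nitric oxide synthase, went from 3.20, 3.66 and 3.49 to 211, 182 and 170.2 FPKM (54.4-fold). Gch1, the rate-limiting enzyme for its cofactor tetrahydrobiopterin, rose 6.85-fold, while later enzymes of cofactor synthesis and recycling, Pts (1.53-fold) and Qdpr (1.64-fold), fell. Odc1, which commits ornithine to polyamines, went from 365, 374 and 345 to 2486, 2572 and 2466 FPKM with little spread, and Sat1, which acetylates polyamines, rose 3.02-fold. Amd1, the other rate-limiting enzyme of polyamine synthesis, fell from 41.8, 44.4 and 53.3 to 17.7, 24.4 and 28.8 FPKM. Ass1, which regenerates arginine, reached 1.26 FPKM from 0.119. In all, 7 of 15 tested genes rose and 4 fell.

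All 16 tested eicosanoid genes of 19 listed were called, 7 higher and 9 lower, and the directions divided the pathway. Ptgs2, the inducible cyclooxygenase, had 2.08, 2.86 and 3.80 FPKM untreated and 568, 851 and 1072 with LPS (285-fold). Ptges, the inducible prostaglandin E synthase, went from 0.16, 0.271 and 0.162 to 3.71, 3.24 and 3.27. On the other side Ptgs1, the constitutive cyclooxygenase, fell from 2.61, 2.51 and 3.001 to 0.621, 0.457 and 0.608 FPKM. The leukotriene genes all fell: Alox5, the 5-lipoxygenase, from 12.7, 13.5 and 13.5 to 4.15, 3.86 and 3.31 FPKM, its activating protein Alox5ap 1.81-fold, Ltc4s 4.05-fold and Lta4h by a log2 change of −0.31, which was not called with median-of-ratios scaling. The prostaglandin-degrading enzyme Hpgd fell 3.09-fold and the prostaglandin D synthase Hpgds 1.96-fold. With median-of-ratios scaling 6 of the 9 remained lower. Ptgs2os2, listed as a separate gene, rose 5.42-fold. Since strand use in the counting is not given, fragments of Ptgs2 and of this antisense neighbour may not be told apart.

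Genes that produce or remove oxidants went 10 higher and 6 lower of 21 tested. Hmox1, haem oxygenase, went from 72.0, 68.1 and 57.4 to 456, 429 and 379 FPKM. The cystine transporter Slc7a11 rose 5.64-fold, the peroxiredoxin Prdx5 4.36-fold, and Cybb, the catalytic subunit of the phagocyte oxidase, 2.75-fold. Its partner Cyba was not called. The glutathione peroxidases Gpx1 (12.99, 9.19 and 9.74 to 5.65, 3.70 and 3.15 FPKM) and Gpx4 (129, 103 and 67.6 to 61.8, 41.4 and 35.5) fell, with groups that did not overlap in either gene. In the handling of metals, Lcn2, which sequesters bacterial siderophores, reached 14.6, 9.87 and 9.61 FPKM from 0.0704, 0.0761 and 0.0633. The copper transporter Slc31a2 rose 4.79-fold and the phagosomal metal exporter Slc11a1 2.97-fold. The ferrireductase Steap3 fell 3.88-fold. Ferritin heavy chain Fth1 rose from 954 to 1707 FPKM, and the light chain Ftl1 was not called.

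On the list of matrix proteases and inhibitors 9 of 14 tested genes rose, with Adam10 the 1 gene lower (85.5, 103 and 137 to 35.2, 44.9 and 50.2 FPKM). The plasminogen activator Plau (urokinase) was not called (69.3 to 60.5 FPKM), and its receptor Plaur rose 10.6-fold. Timp1 reached 24.2, 16.5 and 15.1 FPKM from 0.333, 0.2996 and 0.156, and the gelatinase Mmp9 26.3, 21.7 and 19.8 from 0.71, 0.78 and 0.782. Spp1 (osteopontin), a secreted phosphoprotein, went from 2609.7, 2585 and 3045 to 7933, 9747 and 11304 FPKM. F3 (tissue factor), which starts clotting, rose 24.2-fold and the protein C receptor Procr 9.28-fold.

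Of 16 listed complement genes 4 were tested and 2 rose, properdin (Cfp, 107, 89.1 and 64.5 to 230.3, 167 and 146 FPKM) and the complement inhibitor Cd59a (2.28-fold).

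At the cell surface, adhesion genes went 10 higher and 7 lower of 19 tested. The leukocyte integrin chains Itgam (4.49-fold), Itgal (3.73-fold) and Itgb2 (1.94-fold) rose with the fibronectin receptor chain Itga5 (2.82-fold). Itgb5 fell from 5.51, 6.92 and 4.71 to 1.93, 1.66 and 1.28 FPKM and Itga4 from 121, 146 and 207 to 70.3, 99.5 and 119.8. Itgb1 was not called. Of 11 tested co-stimulatory and checkpoint genes 8 rose and 2 fell. Cd80 rose 3.08-fold, Icosl 11.3-fold and Vsir (VISTA) 3.02-fold, while Havcr2 (TIM-3) fell 4.35-fold and Cd276 3.39-fold.

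Paired immunoreceptors of phagocytes showed opposite movements. Siglec1 (CD169), an interferon-responsive sialic acid receptor, went from 0.91, 1.23 and 1.13 to 37.5, 35.3 and 32.2 FPKM. Trem1, which amplifies inflammation, reached 1.06, 1.18 and 1.17 FPKM from 0.111, 0.0444 and 0.037, whereas Trem2, a lipid-sensing receptor, fell from 45.2, 39.6 and 30.9 to 7.07, 5.79 and 4.27 FPKM. Cd33 fell 4.403-fold, and Cd300a (3.88-fold) and Sirpa (1.86-fold), which carry inhibitory motifs, fell as well. Lilrb4a, also inhibitory, rose from 3.19, 4.28 and 7.83 to 40.2, 91.7 and 139 FPKM, a gene whose near copies leave its level uncertain. The adaptor Tyrobp (DAP12) was not called. For the engulfment of dying cells, Cd36 went from 0.123, 0.195 and 0.193 to 4.403, 5.85 and 7.33 FPKM and Axl from 14.5, 16.9 and 15.3 to 50.8, 46.9 and 44.8. The bridging proteins fell, Gas6 from 3.70, 3.25 and 3.62 to 0.874, 0.535 and 0.51 FPKM and Mfge8 2.12-fold.

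Of 15 tested purinergic, lipid and other G-protein-coupled receptors 8 rose and 4 fell. Hcar2, the receptor for nicotinic acid and ketone bodies, went from 1.26, 1.03 and 1.03 to 32.9, 31.2 and 32.8 FPKM. Gpr18 rose 16.3-fold and the adenosine receptor Adora2b 3.48-fold. The ATP-gated channel P2rx7 fell 1.78-fold and the oxysterol receptor Gpr183 1.80-fold. Regulators that end G-protein signals moved in both directions: Rgs16 went from 13.4, 12.6 and 13.4 to 219, 208 and 196 FPKM and Rgs1 rose 6.38-fold, while Rgs10 fell from 25.1, 24.1 and 19.9 to 10.5, 9.51 and 9.80. In phosphoinositide signalling 1 of 19 tested genes rose and 5 fell, both below the shares over all tested genes (16.6% and 33.1%). The falls were led by the leukocyte PI3 kinase subunit Pik3cd (1.84-fold) and Akt1 (1.52-fold). Pik3ca and Mtor were not called.

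Of 30 tested transcription factors of macrophages 13 were higher and 7 lower, against 16.6% and 33.1% of all tested genes. The lineage factor Spi1 (PU.1) was not called (85.3, 81.9 and 63.5 against 89.3, 70.0 and 59.8 FPKM). Cebpd rose 5.36-fold and Cebpb 2.29-fold, while their relative Cebpa fell from 11.5, 9.78 and 9.02 to 5.41, 4.16 and 3.10 FPKM. Id1 rose 2.88-fold and Id3 fell 3.09-fold. Klf6 rose 2.84-fold and Klf10 fell from 10.4, 11.5 and 12.01 to 2.86, 3.23 and 3.30 FPKM. In these 3 families some of the members named here moved in opposite directions. Naming the largest changes each way favours such pairs, and other members of the families are not given. Of 21 tested immediate early factors 13 rose and 3 fell. Myc reached 8.74, 8.01 and 6.82 FPKM from 0.252, 0.147 and 0.163, Egr1 went from 6.72, 7.24 and 6.76 to 38.6, 31.2 and 32.9 and Junb from 36.5, 37.4 and 27.7 to 156, 113 and 100.1. Fos was not called (2.70 against 3.76 FPKM, though higher with median-of-ratios scaling), and Egr3 fell 1.98-fold.

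The circadian factors gave a further pair of relatives that diverged. Nr1d1 (REV-ERB alpha) rose from 1.63, 1.87 and 1.03 to 6.12, 4.41 and 5.21 FPKM and Nr1d2 (REV-ERB beta) fell from 5.88, 6.91 and 9.48 to 2.05, 3.26 and 4.08. Nfil3 rose 2.96-fold and its antagonist Dbp fell 2.08-fold. Clock itself was not called. Among RNA decay factors, which set how long cytokine mRNAs last, Zfp36 (tristetraprolin) went from 10.7, 9.55 and 9.35 to 97.9, 81.7 and 71.4 FPKM and its relative Zfp36l2 from 32.6, 36.4 and 36.4 to 10.99, 10.1 and 10.03. Zfp36l1 rose 1.247-fold. Over the list 3 of 17 rose and 5 fell, near the shares over all tested genes (16.6% and 33.1%), and with median-of-ratios scaling 3 fell.

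Of 13 tested RNA host and non-coding genes 3 rose and 2 fell, and neither fall was called with median-of-ratios scaling. Mir155hg, the host gene of a microRNA induced by inflammation, went from 1.79, 1.46 and 1.76 to 28.9, 44.5 and 58.7 FPKM. Mir22hg rose 4.28-fold. Neat1, the RNA scaffold of paraspeckles, rose by 1.19 ± 0.33, with 10.9, 14.2 and 22.4 against 22.2, 39.95 and 51.8 FPKM, so that its groups overlapped. Malat1, another nuclear RNA, showed the same unevenness (89.2, 124 and 180.1 against 97.7, 218 and 292 FPKM) and was not called. The libraries with the highest Malat1, untreated replicate 3 and LPS replicates 2 and 3, are those set apart on the second component above, and the part of that difference in these values was not tested.

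The tricarboxylic acid (TCA) cycle gave 1 large rise. Acod1, which makes itaconate from the cycle intermediate aconitate, went from 5.74, 5.997 and 6.52 to 911, 1153 and 1144 FPKM (176-fold). It was the only riser among 25 tested genes of the cycle and its supply, of which 14 fell (median −0.35), or 6 with median-of-ratios scaling. Mdh1, the cytosolic malate dehydrogenase, fell 1.67-fold, Idh2 1.63-fold and Sdhd, an anchor of succinate dehydrogenase, 1.81-fold. Ogdh and Mdh2 were not called. The stretch upstream of Acod1 (chr14:103046917-103046999, plus) is shown because it carries both a reverse GGANTTTCC match and a TATAAA word, in capitals, the latter starting 28 bases before the annotated start.
Acod1: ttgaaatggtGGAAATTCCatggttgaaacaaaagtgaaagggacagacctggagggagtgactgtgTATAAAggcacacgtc

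Most genes of nucleotide synthesis fell, 18 of 23, and 2 rose (median −0.72), and 16 down with median-of-ratios scaling. The thymidine enzymes Tk1 (43.7, 37.0 and 29.6 to 13.96, 10.4 and 9.82 FPKM), Dut (74.0, 62.1 and 53.7 to 27.9, 19.96 and 19.3) and Tyms (15.2, 13.9 and 12.3 to 6.49, 5.76 and 5.62) fell, as did the purine enzyme Paics (2.16-fold). The 2 that rose were Impdh1 (1.36-fold) and Dck (1.23-fold). In the breakdown and salvage of nucleosides Upp1, uridine phosphorylase, reached 39.1, 32.6 and 26.8 FPKM from 0.188, 0.0678 and 0.0282, Pnp rose 2.27-fold and Ada, adenosine deaminase, fell 2.83-fold. Among nutrient transporters the lysosomal peptide transporter Slc15a3 went from 2.20, 2.29 and 1.79 to 50.1, 44.6 and 40.04 FPKM, the glucose carrier Slc2a1 rose 3.17-fold and the amino acid carrier subunit Slc3a2 2.19-fold. Slc37a2 (2.39-fold) and the nucleoside carrier Slc29a1 (2.19-fold) fell.

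ATF4 is a transcription factor that raises amino acid supply when translation is checked by the integrated stress response. Of 18 genes of serine and one-carbon metabolism and other ATF4 targets 11 rose and 2 fell (median 0.87). Trib3, a pseudokinase that feeds back on this response, went from 2.19, 1.67 and 1.17 to 31.0, 20.9 and 18.3 FPKM, the glutathione-degrading Chac1 from 1.94, 1.83 and 1.61 to 23.03, 18.3 and 16.1 and Ddit3 (CHOP) from 3.11, 3.46 and 3.72 to 18.1, 20.7 and 19.5. Atf4 rose 2.36-fold and asparagine synthetase Asns 2.25-fold. The serine synthesis enzymes Phgdh, Psat1 and the mitochondrial Shmt2 were not called, while the mitochondrial folate enzyme Mthfd2 rose 2.39-fold and its cytosolic counterpart Mthfd1 fell 1.52-fold. Aminoacyl-tRNA synthetases, also ATF4 targets, rose in 11 of 20 cases with 1 lower, by up to 2.02-fold for Nars. Qars, the 1 lower, lost its call with median-of-ratios scaling. Upstream words that resemble the CARE element of ATF4, TGATGNAA on either strand, are shown in capitals for Asns (chr6:7693215-7693242, minus) and Chac1 (chr2:119351039-119351066, plus).
Asns: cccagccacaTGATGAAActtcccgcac
Chac1: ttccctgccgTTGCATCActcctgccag
No such word stood in the 250 bases upstream of Trib3 or Ddit3.

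Hypoxia target genes rose in part. Of 19 tested 11 rose and 1 fell (median 0.41). Ddit4, an inhibitor of mTORC1, went from 6.64, 6.84 and 5.65 to 67.4, 53.0 and 48.3 FPKM, the oxidase Ero1a from 33.4, 38.5 and 51.3 to 114, 157 and 183 and the lipid droplet protein Hilpda from 17.7, 12.45 and 10.9 to 64.7, 43.0 and 43.0. Ndrg1 rose 1.53-fold. Ldha, Mxi1 and Hif1a itself were not called, Bnip3 was not called as deposited and was called higher with median-of-ratios scaling, and Ankrd37 fell 1.99-fold.

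Genes that decide cell survival rose on both sides. Of 32 tested 19 rose and 6 fell (median 0.57). Zbp1, a sensor of Z-form nucleic acid that can start necroptosis, went from 1.76, 1.55 and 0.769 to 54.1, 49.0 and 44.5 FPKM and its effector Mlkl rose 5.53-fold. Protective genes also rose: Bcl2l1 (BCL-XL) 5.02-fold, Cflar 3.59-fold, Birc3 3.30-fold and Ier3 from 247, 223 and 183 to 1826, 1375 and 1216 FPKM. The Bcl2a1 copies rose (Bcl2a1d 5.34-fold), but their sequences are nearly the same and the split between them is uncertain. The pro-apoptotic Bbc3 (PUMA) rose 5.45-fold. Bax and Bak1 were not called, while Bid fell 1.77-fold and Trp53 1.46-fold. Birc5 (survivin), a gene also used in mitosis, fell 3.90-fold.

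**Figure D4:**
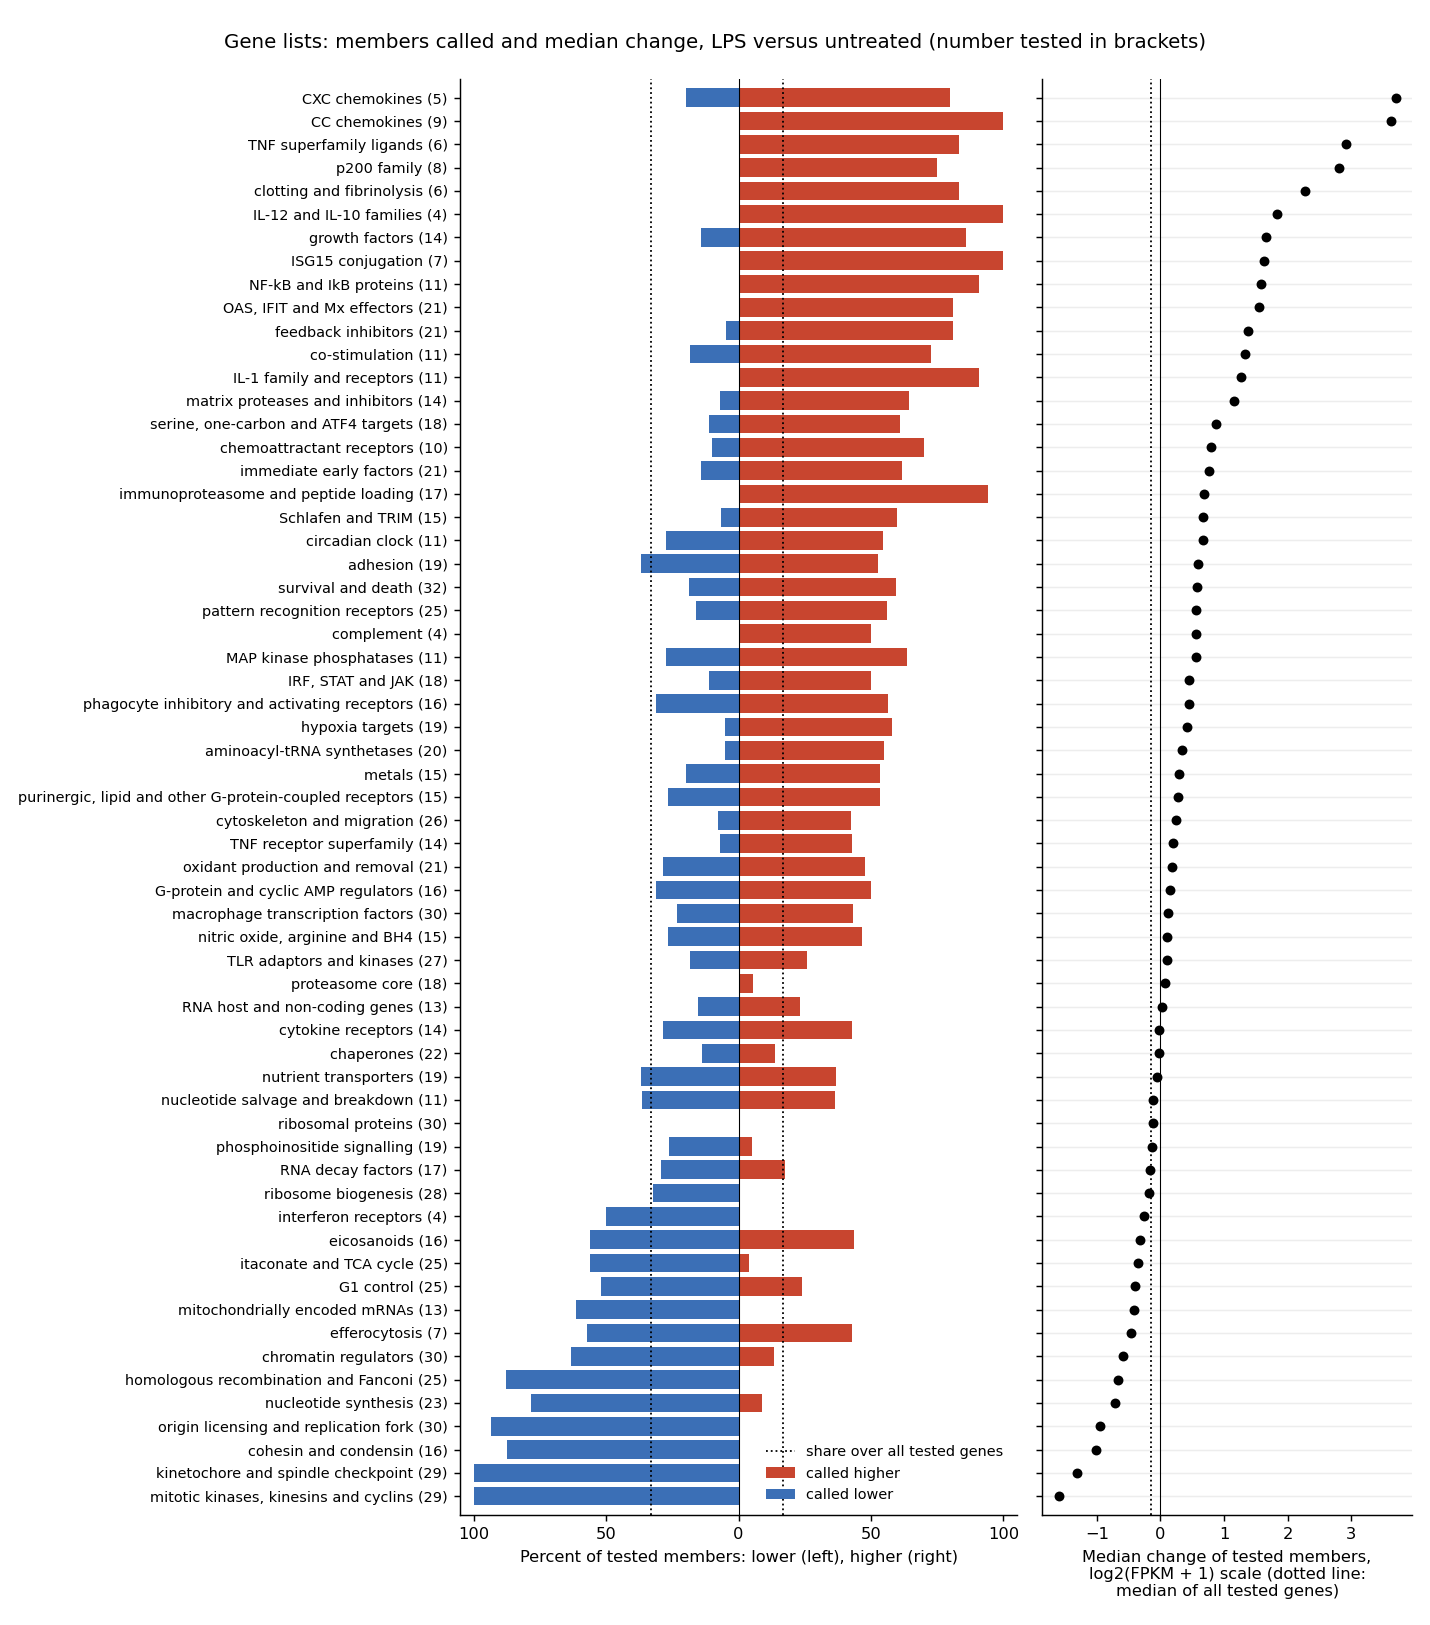
For each gene list, the percent of its tested members called higher (red, to the right) and lower (blue, to the left), with dotted lines at the shares over all tested genes (16.6% and 33.1%), and on the right the median change of the list, with a dotted line at the median of all genes (−0.14). The chemokine lists lie at the top with medians above 3.5, and the mitosis lists lie at the bottom with every member lower.

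Genes of cell division fell across all phases after G1. None of the 129 tested genes of replication, kinetochore, mitosis, cohesin and recombination rose, and 122 fell. For origin licensing and the replication fork 28 of 30 fell (median −0.95). The helicase subunits Mcm2 to Mcm7 all fell, led by Mcm7 (81.8, 79.5 and 71.9 to 33.3, 32.7 and 28.7 FPKM), with the ligase Lig1 (41.2, 44.9 and 40.5 to 17.1, 15.9 and 15.2) and the licensing inhibitor Gmnn (60.4, 58.1 and 59.5 to 21.4, 23.5 and 22.7). Orc1 and Dna2 were not called.

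Deeper falls were seen in mitosis. All 29 kinetochore and checkpoint genes (median −1.31) and all 29 mitotic kinases, kinesins and cyclins (median −1.60) were lower, 52 of these 58 by at least 2-fold. Plk1, a kinase that drives entry into mitosis, had 55.6, 53.9 and 43.7 FPKM untreated and 10.1, 7.55 and 7.02 with LPS (6.21-fold lower, adjusted p = 2.39e-08). Cdc20, the activator of the anaphase-promoting complex, went from 98.3, 100.3 and 81.2 to 20.2, 17.8 and 14.01 FPKM, and the cyclins Ccnb2 from 93.9, 95.8 and 85.2 to 22.8, 20.9 and 18.8 and Ccna2 from 64.8, 66.4 and 68.3 to 13.1, 14.6 and 14.02. The proliferation marker Mki67 fell 4.44-fold and the kinetochore protein Cenpf 5.54-fold. Condensin subunits fell (Ncapd2 3.60-fold, Ncaph 2.89-fold), as did separase, Espl1 (4.09-fold), while the cohesin subunits Stag1 and Stag2 were not called. In homologous recombination and the Fanconi pathway 22 of 25 fell (median −0.66, 18 lower with median-of-ratios scaling), among them Exo1 (2.79-fold) and Brca1 (2.20-fold).

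Genes that control G1 were divided: 6 of 25 tested rose and 13 fell. Cdkn1a (p21), an inhibitor of cyclin-dependent kinases, went from 47.3, 46.2 and 38.6 to 342, 262 and 237 FPKM. The anti-proliferative Btg2 (3.13-fold) and Btg1 (2.07-fold) and the cyclin Ccnd2 (3.09-fold) rose. The inhibitor Cdkn2c fell from 12.3, 12.2 and 9.97 to 3.43, 2.504 and 2.9998 FPKM, cyclin E2 (Ccne2) 2.03-fold and the repressor E2f8 3.64-fold. Cdkn1b (p27) was not called here and was higher with median-of-ratios scaling. Chromatin genes followed the cycle in part, with 19 of 30 lower and 4 higher. The DNA methyltransferase Dnmt1 (2.26-fold), its recruiter Uhrf1 (2.17-fold), the histone chaperone Asf1b (2.87-fold) and Hmgb2 (243, 238 and 246 to 80.5, 87.5 and 93.3 FPKM) fell. The histone demethylase Kdm6b, known as an LPS-inducible gene, rose 3.19-fold and the DNA dioxygenase Tet2 3.05-fold.

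Promoters of mitotic genes often pair CCAAT boxes, bound by NF-Y, with the CHR word TTTGAA, bound by the DREAM complex and by B-MYB with FOXM1. Stretches upstream of Ccnb2 (chr9:70421561-70421731, minus), Cdc20 (chr4:118437344-118437406, minus), Ccnb1 (chr13:100786539-100786595, minus) and Plk1 (chr7:122159411-122159434, plus) are shown for their CCAAT words, with CCAAT and TTTGAA in capitals.
Ccnb2: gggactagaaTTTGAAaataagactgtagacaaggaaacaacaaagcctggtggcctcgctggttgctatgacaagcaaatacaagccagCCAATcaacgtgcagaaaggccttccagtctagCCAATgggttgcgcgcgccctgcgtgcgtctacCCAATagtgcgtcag
Cdc20: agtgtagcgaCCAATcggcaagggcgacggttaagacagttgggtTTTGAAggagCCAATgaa
Ccnb1: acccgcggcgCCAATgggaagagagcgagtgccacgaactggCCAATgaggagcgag
Plk1: atccccgcggCCAATcagcaacgc
Ccnb2 holds 3 CCAAT words at 87, 54 and 21 bases before its start. Ccnb1 holds 2, Cdc20 holds 2 with a TTTGAA word between them, and Plk1 holds 1.

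Housekeeping groups give the scale of the falls. None of 30 ribosomal protein genes was called (median −0.12, against −0.14 for all genes). Of these Rplp1 stood at 1922, 1428 and 1167 FPKM untreated and 2009, 1271 and 1046 with LPS. Of 28 ribosome biogenesis genes 9 were lower by limma (median −0.18), near the share over all tested genes (33.1%). With median-of-ratios scaling 3 were lower and 2 higher. Of 22 tested chaperones 3 rose and 3 fell, or 8 and 1 with median-of-ratios scaling. Hspa5 (BiP), the chaperone of the endoplasmic reticulum, rose 1.42-fold, and the inducible heat shock protein Hspa1b fell 3.45-fold.

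The 13 mRNAs encoded in mitochondria did not move as a block. Transcripts for complex I subunits fell, ND1 from 10264, 9412 and 7362 to 5045, 4113 and 4199 FPKM and ND2 from 3777, 3656 and 2820.5 to 2196, 1790.5 and 1712, as did CYTB (6328, 6097 and 5219 to 3686, 3366 and 3378). COX1, the most abundant entry of the table, was not called (13847, 13892 and 12422 against 12604, 12893 and 13559.6 FPKM). In all 8 were lower, or 5 with median-of-ratios scaling. These transcripts come from a common precursor on each strand, and neighbouring short genes may share fragments.

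In the cytoskeleton 11 of 26 tested genes rose and 2 fell (median 0.25), with none lower under median-of-ratios scaling. Rhoc went from 49.6, 39.5 and 29.2 to 277, 203 and 172 FPKM, Rnd1 rose 7.88-fold and the actin regulator Marcksl1 4.65-fold. The common reference gene Actb rose 1.68-fold, from 1219.9 ± 114 to 2050.2 ± 247 FPKM, and its relative Actg1 2.51-fold, so neither was level between these groups. Cfl1, Pfn1 and Vim were not called.

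Genes outside these lists made up 293 of the 526 risers and 305 of the 431 fallers. The following were chosen for the size of their change after the values were seen. Plk2, a kinase unrelated in timing to Plk1, went from 0.794, 0.822 and 0.900 to 40.4, 47.3 and 52.2 FPKM (55.6-fold), and Plk3 rose 7.96-fold, so the polo-like kinases moved in opposite directions. Hdc, which makes histamine, went from 0.145, 0.187 and 0.182 to 13.97, 12.7 and 11.1 FPKM, the acute-phase protein Saa3 from 0.539, 0.408 and 0.383 to 22.98, 15.2 and 12.6 and the adaptor Scimp from 3.90, 2.40 and 3.56 to 93.7, 88.2 and 81.2. Guanylate-binding proteins rose (Gbp3 41.3-fold), and so did Cth, which makes cysteine (12.55-fold), the kinase Pim1 (10.4-fold) and the matrix protein tenascin C, Tnc (25.3-fold). Urah, a urate pathway hydrolase, was listed at 0 in all untreated libraries and stood at 11.7, 8.09 and 7.69 FPKM with LPS.

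Among fallers, Cd24a, a surface glycoprotein, was the only gene of all tested with a fall of at least 8-fold on this scale (32.6, 33.5 and 27.8 to 2.72, 1.91 and 2.48 FPKM, log2 change −3.26 ± 0.11). Gpnmb, a lysosomal and membrane glycoprotein, went from 132, 142 and 127 to 29.0, 26.2 and 23.1 FPKM, the tight junction protein Cldn11 from 101, 98.6 and 89.4 to 21.8, 17.4 and 15.8 and Ndrg4 from 41.4, 43.4 and 38.9 to 6.81, 5.72 and 5.09. Klhl30 went from 3.32, 3.60 and 3.22 FPKM to 0.0601, 0.0205 and 0.0955. Further mitotic genes stood among the unlisted fallers, such as Aspm (5.48-fold), Nusap1 (3.63-fold) and the inhibitory kinase Wee1 (4.52-fold).

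Many risers lay beside other risers on the chromosomes, described here without a test. In the gene order of GENCODE M21 (GRCm38), 151 of 518 placed risers (29.2%) were next to another riser among tested genes, against 8.59% of the 9582 other tested genes that were next to a riser. For fallers the shares were 11.6% of 424 and 8.06%. The longest run of consecutive risers held the 8 p200 genes from Ifi209 to Ifi202b (chr1:173630917-173982744), with changes from 1.18 to 4.18. Ccl5, Ccl9, Ccl6, Ccl3, Ccl4 and Wfdc17 formed a run of 6 (chr11:83525778-83706268, 1.37 to 6.97). Aif1, Lst1, Mir6973a, Ltb, Tnf and Lta formed another of 6 (chr17:35170991-35205351, 1.01 to 4.46). In that dense region overlapping entries such as Mir6973a may share fragments with their neighbours. Other runs were the Gbp genes (5), the Ms4a and Ifit genes (4 each) and Slfn2, Slfn1 and Slfn4 (3). Many neighbours are copies of each other, so they are not independent.

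Upstream words were counted in the 250 bases before the start for the 6418 tested genes that have 1 promoter in the RefSeq table, of which 331 were risers and 288 fallers. These 10 words were searched on both strands. GAAANNGAA stood in 17.5% of risers, 5.2% of fallers and 6.4% of tested genes. GGANTTTCC stood in 3.6%, 1.4% and 1.1%, in that order, TGANTCA (AP-1) in 9.4%, 4.2% and 3.9%, and TGATGNAA in 5.1%, 2.1% and 1.8%. For TATAAA the shares were 12.1%, 4.9% and 5.9%. CCAAT went the other way, with 35.0% of risers, 52.1% of fallers and 37.9% of tested genes. TTTGAA stood in 14.5%, 22.2% and 10.8%, TTCCCGC (E2F) in 3.6%, 8.7% and 7.5%, CACGTG (E-box) in 7.6%, 10.4% and 9.0% and TGACGTCA (CRE) in 2.1%, 1.7% and 3.0%. Over all 22862 promoters of the table the shares were 7.2% for GAAANNGAA, 1.1% for GGANTTTCC, 7.0% for TGANTCA, 3.6% for TGATGNAA, 13.6% for TATAAA, 34.7% for CCAAT, 16.7% for TTTGAA, 3.8% for TTCCCGC, 5.9% for CACGTG and 1.6% for TGACGTCA. CCAAT, the shortest word, was also the most frequent in each of these sets, and AP-1 and CRE words differ by a few letters. These shares carry no test, and a word is not shown to be in use.

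The response was also measured in cells that had received the antibody, which gives the same contrast between 6 other libraries, though their spread and levels entered the fit and the filter used above. Of the 526 risers 518 (98.5%) were called higher there too, against 16.3% of all genes called higher in that contrast. Of the 431 fallers 429 (99.5%) were called lower, against 31.3%. Their median changes were 1.51 and −1.20 there, and 1.54 and −1.25 in cells without the antibody. The difference between the 2 responses, tested as the interaction in the same limma fit, was called for 132 genes (1.28%), among them 54 of the 526 risers and 4 of the 431 fallers. This count fell to 80 without LPS replicate 2, to 83 without untreated replicate 2 and to 77 without the antibody-alone replicate 3. Without replicate 1, 2 or 3 of LPS with antibody it was 81, 78 and 81. Of the 54 risers 26 changed more with the antibody and 28 changed less. With all 4 fallers the fall was larger with the antibody.

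Members of several groups above were in this set. Csf3, Il1a, Il1b, Csf2, Lta and Lcn2 rose more in antibody-treated cells (Lcn2 by 5.57 against 3.51), and Egr1, Atf3, Nos2, Rgs1 and Trib3 rose less (Egr1 by 0.66 against 2.15). Of the 19 tested hypoxia targets 11 differed, and 7 of these were called lower with LPS in antibody-treated cells. Ndrg1 changed by 0.58 ± 0.09 without the antibody and by −1.47 with it. The 1 riser called in the opposite direction was Ccng2, a cyclin linked to arrest, at 4.27, 4.27 and 5.58 FPKM untreated and 10.4, 11.4 and 13.8 with LPS. It changed by 1.18 without and by −0.48 with the antibody (interaction −1.66, adjusted p = 0.00201).

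**Figure D5:**
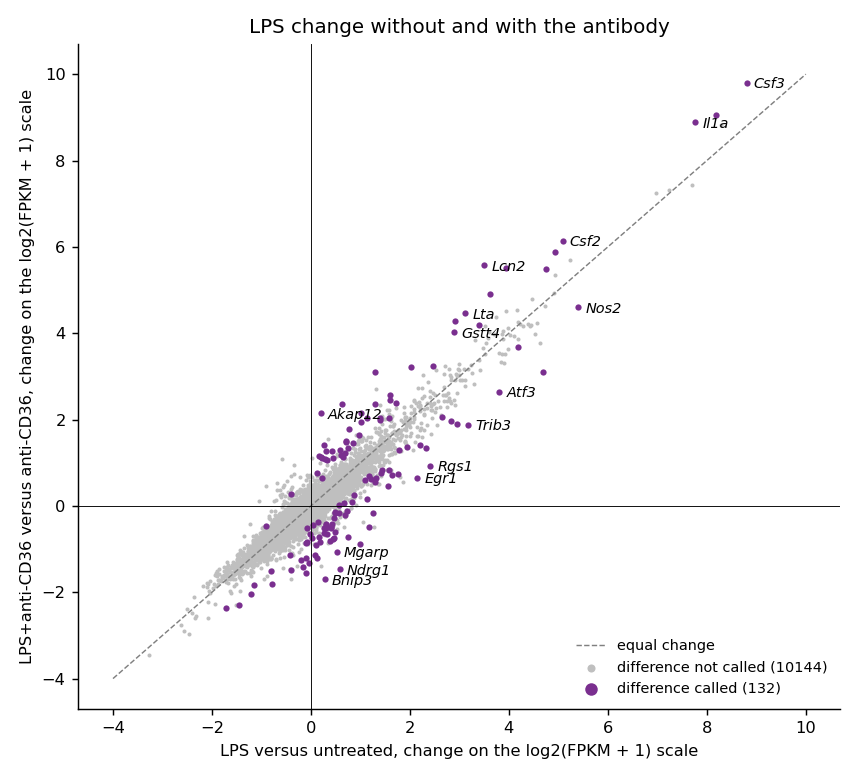
Change with LPS in antibody-treated cells (vertical) against the change in cells without antibody (horizontal), both on the log2(FPKM + 1) scale, 1 point per tested gene, with the line of equal change dashed. Purple points are the 132 genes whose difference was called; Lcn2, Csf2 and Akap12 lie above the line and Ndrg1, Bnip3 and Egr1 below it.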

How the data were processed

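RNA from RAW264.7 cells was sequenced in 12 libraries, 4 groups of 3. Per the labels' protocols, total RNA was extracted with Trizol and Illumina libraries were prepared from it. The labels' descriptions also read 10x Genomics, with other numbers than 10 in the LPS groups. The table holds 1 column per sample, and its values were treated as those of bulk libraries. HISAT2 2.0.5 and the builds mm39 and hg38 are named in the submitters' processing notes, without roles. The counting tool and the annotation are not given in the sources used here. The FPKM values (fragments scaled to gene length and library size) were computed and deposited by the authors, in 1 table of 31801 entries, of which 82 with a repeated symbol were left out.

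The fit took the 10276 genes that reached 1 FPKM in 3 or more of the 12 libraries. Il6 was left out, because its values without LPS belong to another gene of the table. Values were taken as log2(FPKM + 1) and fitted with limma 3.58.1 (R 4.3.3) as 4 group means with an intensity trend. The tests are two-sided, and p-values were adjusted by Benjamini-Hochberg over all tested genes. The fit was tested on simulated data. Python 3.11.15 (pandas 2.3.3, numpy 2.4.6) made the tables. With GENCODE M21 gene lengths, the deposited FPKM gave whole fragments (within 0.005) in 16700 of 18143 genes (92.0%), which gave each library's depth. The limma-voom test on these fragments called 1725 genes higher and 3420 lower. Gene positions are from GENCODE M21 and upstream sequences from RefSeq, both on GRCm38. The alternatives were other pseudocounts, filters and scalings, fewer libraries in the fit, no intensity trend, a replicate block, removal of the trend on GC content and gene length, limma-voom, and leaving out each library.

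The members and gene lists were chosen with earlier results of these data known. Named are, among called genes with non-overlapping groups and a mean of 2 FPKM or more in the higher group (predicted genes and pseudogenes left out), those with the largest changes, 15 up and 15 down, up to 4 called members of each list in each direction with up to 2 not called, the 10 most abundant genes, for the antibody difference the 4 of smallest p each way, and Tlr4, Cd14, Ly96, Tnf, Il1b and Nos2. Further members of the lists were named after their values were seen. A few genes that the rule takes are counted with the rest but not reported here by name.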

Additional observations from a re-analysis of the deposited data

Results flagged for a closer look

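For 40 named genes the change with LPS differed between cells given the anti-CD36 antibody and cells without it, by the interaction term of the limma fit (adjusted p under 0.05, Benjamini-Hochberg over all 10276 tested genes). The named genes followed across the processing settings numbered 451. Over all 10276 tested genes the difference was called for 132 (1.28%). Some named genes were picked for the smallest p of this same interaction test, so passing it is built into their choice. The count of 40 therefore does not measure how often named genes differ. Each value here is the log2(FPKM + 1) change with the antibody minus the change without it, over 3 libraries per group. A positive value is a larger rise or a smaller fall with LPS in the antibody-treated cells.

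Among cytokines, chemokines and growth factors the difference was 1.19 for Il1f6, 1.12 for Il1a, 0.86 for Il1b, 1.34 for Lta, 1.06 for Csf2, 1.00 for Csf3, 0.97 for Il23a, 0.95 for Il27 and 0.74 for Ccl22. The siderophore-binding protein gene Lcn2 differed by 2.06 and the metalloprotease inhibitor gene Timp1 by 1.59. The clotting gene F3 gave −0.97 and the plasminogen activator gene Plau gave −1.05. Hpgd, which degrades prostaglandins, gave −0.85 and the prostacyclin receptor Ptgir gave 0.58. Among other receptors and surface proteins the values were −0.60 for C3ar1, 0.47 for Itgal and 0.79 for Tnfrsf1b.

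Genes known to respond to low oxygen gave −2.05 for Ndrg1, −1.98 for Bnip3, −1.57 for Mgarp, −1.04 for Ddit4, −1.02 for Ankrd37, −0.91 for Slc2a1 and −0.76 for Mxi1. Genes of transcription, chromatin and RNA decay gave −1.49 for Egr1, −0.71 for Egr3, −1.16 for Atf3, −1.47 for Ciart, −0.59 for Kdm6b and −0.75 for Zfp36l1. The stress-response genes gave −1.29 for Trib3 and −0.88 for Chac1. The remaining differences were −0.80 for Nos2, −1.48 for Rgs1, 1.95 for Akap12, 0.61 for Pde4b, 1.13 for Gstt4, 0.84 for Slfn1 and 0.67 for Tubb2a.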

How the results depend on the processing

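Of 352 named genes that were called, 320 to 352 of those with a value kept their call and direction in each alternative other than the filter at 5 FPKM, which kept all 300 with a value, and limma-voom, which kept all 351. None of the called genes turned. Of named genes not called, Aprt (0.16), Rela (0.14) and Shmt2 (0.17) turned from negative values to these and were called higher with a replicate block and the trend on GC content and gene length removed. Uncalled changes near 0, such as that of Bak1, also changed sign without a call. Removing that trend, which also moves the median change from −0.14 to 0.007, gave 3087 genes called higher in place of 1710, and 3382 with the block as well. Median-of-ratios scaling gave 2226 lower in place of 3403. The count at least 2-fold lower, 431, became 264 with the trend removed, with or without the block, 286 with median-of-ratios scaling, 723 with limma-voom and 688 with a pseudocount of 0.1. The difference between the responses with and without antibody, 132 genes, became 417 with the trend removed, 600 with the block as well, 85 with the filter at 5 FPKM (7148 genes tested in place of 10276) and 72 with limma-voom. For the other shifts the cause was not tested. Leaving out each of the 12 libraries in turn (for the antibody libraries chosen after seeing the data) gave 77 (without anti-CD36 replicate 3) to 161 (without LPS replicate 1) such genes. Leaving out each LPS or untreated library gave 4302 to 5459 called with LPS alone in place of 5113, 510 to 562 at least 2-fold higher and 428 to 458 at least 2-fold lower.

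The replicates share only a number. The correlation of deviations from the group means between untreated and LPS libraries was 0.78 for number 1, −0.24 for number 2 and 0.81 for number 3, and untreated replicate 2 correlated best with LPS replicate 1 (0.42). With the replicate number as a block 6131 genes were called, 1997 higher and 4134 lower, and the antibody difference was called for 212. The depth, 30070450 to 54137812 fragments per library, sets the counting error only.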
